A study of Mus musculus with 18 samples.

Results

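The genes described are 10 brakes of the cell cycle in Col2.3GFP osteoblasts: the CDK inhibitors *Cdkn1a*, *Cdkn1b*, *Cdkn2a*, *Cdkn2b*, *Cdkn2c* and *Cdkn2d*, the retinoblastoma family *Rb1*, *Rbl1* and *Rbl2*, and *Trp53*. They were taken by symbol, and all 10 are rows of each of the 3 count tables, which hold 17173 genes for bone, 16966 for bone chips and 19781 for ESC. Progress from G1 to S phase depends on cyclin-dependent kinases that phosphorylate the Rb family and so release E2F factors. Inhibitors of the Cip/Kip family (*Cdkn1a*, *Cdkn1b*) and of the INK4 family (*Cdkn2a* to *Cdkn2d*) block these kinases, and p53, the product of *Trp53*, switches on *Cdkn1a*. Osteoblasts leave the cell cycle as they mature, and *Rb1* is the gene lost in hereditary retinoblastoma, in which osteosarcoma is common.

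RNA of 6 populations was sequenced, with 3 libraries each. All cells carry or derive from Col2.3GFP, in which the 2.3 kb *Col1a1* promoter drives GFP in maturing cells of the osteoblast lineage, so that GFP is a report of that promoter and not of a cell type as such. Fresh long bone of transgenic mice gave GFP+ (hi) and heterogeneous GFP- cells, bone chip cultures under osteogenic differentiation gave the same pair, and mouse ESC with the transgene gave GFP+ (hi) osteoblasts (ESC-OB) that were compared with ESC. The ESC also bear a label of osteogenic differentiation; by their title they were treated as undifferentiated here. Age, strain and sex of the mice, the number pooled and whether libraries came from separate animals or cultures are not given in the sources used here, so p-values measure the spread between libraries, which may be technical. GFP+ (lo) cells were not analysed here.

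The labels were checked against marker genes. Osteoblast markers made up 60.2 to 61.2% of all counts of bone GFP+ libraries and 1.91 to 3.11% of bone GFP- libraries. The shares were 26.6 to 31.3% and 6.35 to 6.86% for bone chips, and 0.635 to 1.74% for ESC-OB against 0.101 to 0.105% for ESC. In ESC-OB the late osteoblast marker *Bglap* had 2 to 29 counts and the osteocyte marker *Sost* 0 to 4, whereas the osteocyte marker *Dmp1* had 81 to 558, *Phex* 18 to 250 and *Ibsp* 17 to 30225. Of 8 osteoblast markers tested as below, 6 were higher in ESC-OB than in ESC and 1, *Alpl*, was lower (-3.09 on the log2 scale). Of other markers, 8 of 10 for fibroblasts and progenitors, 7 of 10 for chondrocytes and 4 of 6 for endothelium were higher there. In these lists 1, 1 and 2 were lower, beside 43% higher and 34.7% lower of all genes. Chondrocyte markers made up 17.2 to 29.7% of all counts of bone GFP- libraries and 0.741 to 0.984% of bone GFP+ libraries, and in bone chips 0.708 to 1.21% in GFP- and 0.767 to 0.982% in GFP+ cells. All 9 ESC genes had counts in bone GFP+ cells (0.00164 to 0.00204% of the counts, against 0.591 to 0.632% in ESC), while *Pou5f1* had at most 1 count in each bone GFP- library. *Ptprc*, the leukocyte antigen CD45, stood at 76.5 CPM (counts per 1e+06, scaled as below) in GFP- replicate 2 of bone chips and at 8.92 and 6.15 CPM in the others. Summed over 4 Y-linked genes, bone GFP- libraries had 625 to 1167 counts and bone GFP+ replicate 2 had 913, but bone GFP+ replicates 1 and 3 had 6 and 9. Total counts were 5482065 to 6468750 in bone GFP-, 21425212 to 43874837 in bone GFP+, 9829832 to 17553194 in bone chip GFP-, 13228266 to 15221973 in bone chip GFP+, 4920977 to 21215099 in ESC and 20680956 to 26601417 in ESC-OB libraries.

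The promoters of *Rbl1* and *Cdkn2a* are shown because they are the promoters among the 10 genes with an E2F word near a start site. Both genes fell from ESC to ESC-OB, but in bone chips *Cdkn2a* rose and *Rbl1* was not called, so their direction was not shared between sources. RefSeq promoters (GRCm38.p6, 250 bases before to 50 after the start) were matched for 9 of the 10 genes, with 12 windows; *Rb1* is named only. The words TTTCCCGC, TTTCGCGC, TTTGCCGC and TTTGGCGC were searched on both strands. They were found in 2 of the 12 windows and in 2.26% of all 32851 promoter windows. *Cdkn2a* has an upstream start, that of the p19Arf transcript, and a downstream start, that of the p16Ink4a transcript, and an E2F word stands before the upstream start only. A match is a run of letters and not a shown binding site. The 120 bases before each start are printed 5′ to 3′ on the gene's strand, with the E2F word in capitals.
*Rbl1*, chr2:157204535-157204654, minus strand, word 18 to 11 bases before the start: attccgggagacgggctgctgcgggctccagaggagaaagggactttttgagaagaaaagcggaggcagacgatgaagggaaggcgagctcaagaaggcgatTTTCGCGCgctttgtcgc
*Cdkn2a*, upstream start, chr4:89294620-89294739, minus strand, word 99 to 92 bases before the start: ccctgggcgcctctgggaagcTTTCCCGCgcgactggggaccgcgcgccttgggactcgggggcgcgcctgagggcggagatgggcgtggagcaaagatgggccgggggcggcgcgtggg
*Cdkn2a*, downstream start, chr4:89282193-89282312, minus strand, no word: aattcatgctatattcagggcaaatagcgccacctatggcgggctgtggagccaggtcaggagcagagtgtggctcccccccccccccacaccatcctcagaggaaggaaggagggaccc

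On the files' build, mm9, *Cdkn2a* lies at chr4:88920377-88940557 and *Cdkn2b* at chr4:88952198-88956941, both on the minus strand and 11640 bases apart. *Cdkn2c* is elsewhere on the same chromosome, at chr4:109333481-109339794. *Cdkn1a* is at chr17:29227924-29237667, *Cdkn1b* at chr6:134870419-134875531, *Cdkn2d* at chr9:21092907-21095653, *Rb1* at chr14:73583480-73725629, *Rbl1* at chr2:156971629-157030270, *Rbl2* at chr8:93593956-93647743 and *Trp53* at chr11:69393861-69405375. In GENCODE vM1, 408 of the 6015 exon bases of *Rb1* are shared with *Lpar6* and 488 with *Rcbtb2* on the other strand, and 693 of the 6963 exon bases of *Rbl2* with *Aktip*. Since the strand setting of the counts is not given, reads of these partners cannot be told apart there.

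Each of the 10 genes had its own order of populations, and no population held all brakes high. Levels are CPM scaled by TMM over the 18 libraries. *Cdkn1a*, *Cdkn2a* and *Rb1* were highest in bone chip GFP+ cells, *Cdkn1b*, *Cdkn2b* and *Cdkn2c* in bone chip GFP- cells, *Cdkn2d* in bone GFP- cells, *Rbl2* in bone GFP+ cells, and *Rbl1* and *Trp53* in ESC. Libraries of the highest population overlapped those of the next for *Cdkn1a* (bone GFP+ cells next), *Cdkn2b* (ESC-OB next) and *Cdkn2d* (bone GFP+ cells next). These highest populations were the same for all 10 genes with RLE factors and for 7 of them with library totals alone; with totals, ESC-OB came first for *Cdkn1a*, *Cdkn2b* and *Rbl2*. Sources differ in table, culture and preparation, which cannot be told apart from each other. In these sorted bulk samples, fewer cells of a type and less RNA per cell cannot be told apart either.

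**Figure D1:**
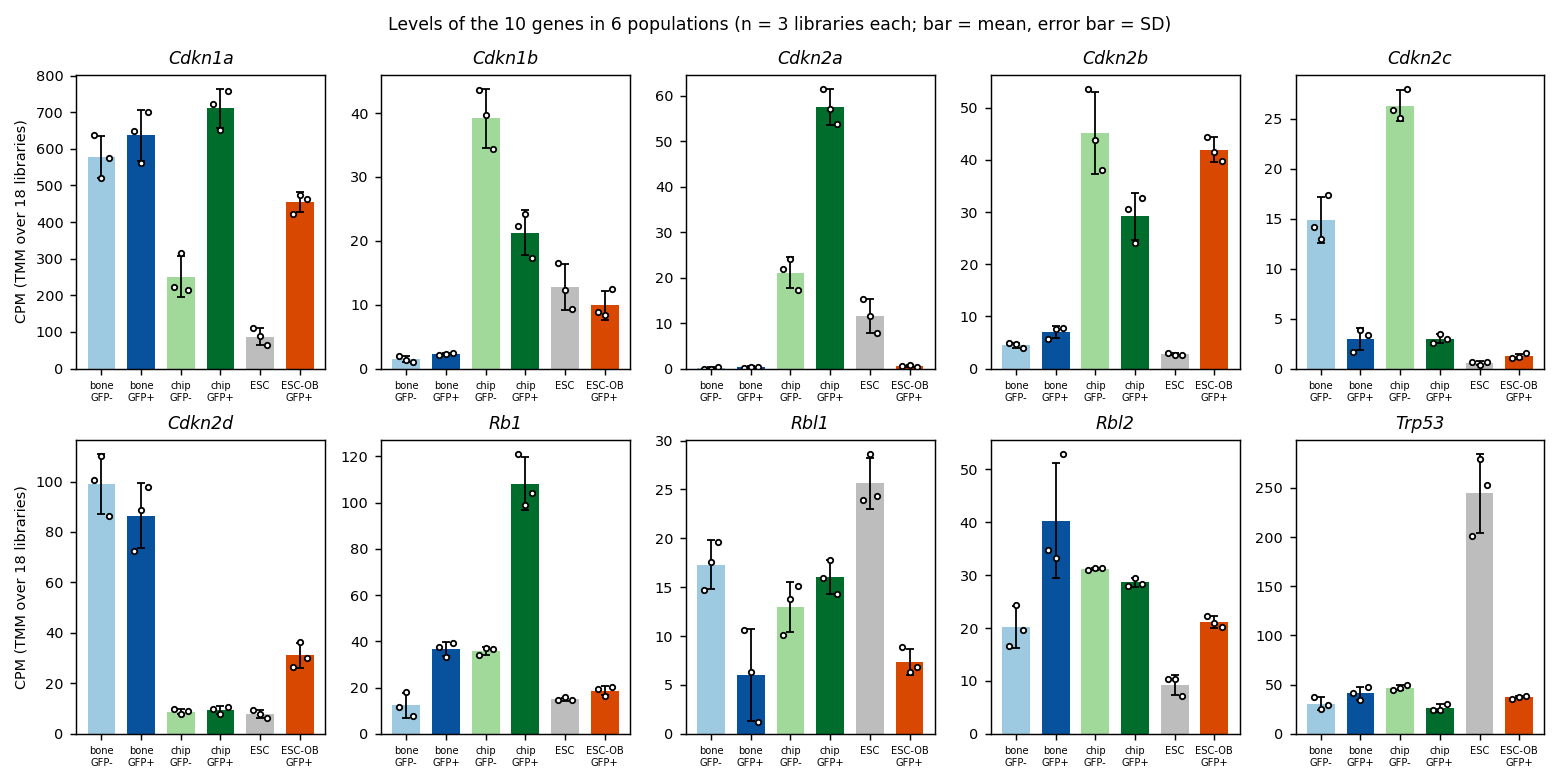
Levels of the 10 genes in CPM (TMM over 18 libraries, linear axes from 0) for GFP- and GFP+ (hi) cells of bone and bone chips, ESC and ESC-OB; points are libraries, bars means and error bars SD (n = 3). *Cdkn2a* is near 0 in both bone populations and highest in bone chip GFP+ cells, and *Trp53* is highest in ESC.

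Compared per length, as CPM per kilobase of exon (RPKM), *Cdkn1a* was the most abundant of the 10 in every population but ESC. It reached 287 ± 31.6 RPKM in bone GFP+ cells and 320 ± 24.5 in bone chip GFP+ cells (SD, n = 3). In ESC *Trp53* led with 60.4 ± 9.92 RPKM and *Cdkn1a* followed with 39.1 ± 10.3. The runner-up changed with the source. It was *Cdkn2d* in bone GFP+ cells (68.0 ± 10.1 RPKM), *Cdkn2a* in bone chip GFP+ cells (49.1 ± 3.38 RPKM) and *Cdkn2b* in ESC-OB (30.1 ± 1.67 RPKM). *Rbl1* was at 1.01 to 4.28 RPKM in mean over the 6 populations, and *Cdkn2c* at 0.201 RPKM in ESC.

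The main comparisons asked which of these genes differ between GFP+ cells and the reference of the same source. In bone, 9 of the 10 genes passed the filter on low counts; 2 were higher in GFP+ cells (*Rb1*, *Rbl2*), 2 lower (*Cdkn2c*, *Rbl1*) and 5 did not pass the test. Of all 12559 genes tested there, 19.5% were higher and 22.1% lower. In bone chips all 10 were tested, with 3 higher (*Cdkn1a*, *Cdkn2a*, *Rb1*), 4 lower (*Cdkn1b*, *Cdkn2b*, *Cdkn2c*, *Trp53*) and 3 not called, against 20.4% higher and 23.1% lower of 12841 genes. In ESC-OB 5 were higher (*Cdkn1a*, *Cdkn2b*, *Cdkn2c*, *Cdkn2d*, *Rbl2*), 3 lower (*Cdkn2a*, *Rbl1*, *Trp53*) and 2 not called, against 43% higher and 34.7% lower of 15417 genes. In the median over those tested, the 10 genes differed by 0.28 (bone), -0.0012 (bone chips) and 0.74 (ESC-OB) on the log2 scale, beside -0.0013, -0.04 and 0.22 over all genes.

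The scaling changed directions in bone. With library totals alone the median of all genes moved to -1.06 (bone), -0.60 (bone chips) and 0.44 (ESC-OB) on the log2 scale. The split of the 10 genes then became 0 higher with 5 lower (bone), 3 with 6 (bone chips) and 6 with 3 (ESC-OB). Of all genes tested, 5.54% were then higher and 62% lower in bone, 8.24% and 61.7% in bone chips, and 47.4% and 31.4% in ESC-OB. Without bone GFP- replicate 1, or without replicate 3, only 2 of the genes passed in bone.

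**Figure D2:**
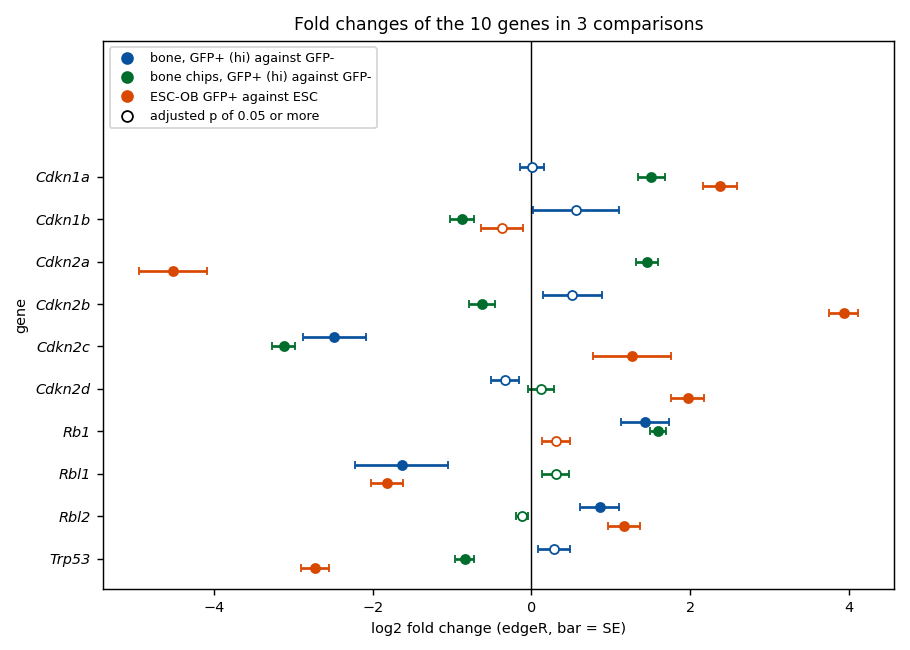
Log2 fold changes of the 10 genes (x axis, edgeR, bars SE) for the 3 sources; filled points passed an adjusted p of 0.05. *Cdkn2c* lies to the left in bone and bone chips and to the right in ESC-OB, and *Cdkn2a* was not tested in bone.

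*Cdkn1a* encodes p21, the CDK inhibitor that p53 induces. Its level was 637, 521 and 575 CPM in bone GFP- and 649, 562 and 701 CPM in bone GFP+ libraries. The libraries of both populations overlapped, and the difference of 0.01 ± 0.15 (log2, SE) had a 95% interval of -0.33 to 0.34 and an adjusted p of 0.981. In bone chips the level was 223, 316 and 213 CPM in GFP- and 722, 651 and 758 CPM in GFP+ libraries. GFP+ libraries were all above GFP- libraries, by 1.51 ± 0.17 on the log2 scale (2.85-fold, adjusted p = 0.000572). In ESC it was 109, 87.8 and 63.7 CPM and in ESC-OB 423, 474 and 464 CPM, a rise of 2.37 ± 0.22 (5.18-fold, adjusted p = 2.66e-06). With library totals alone *Cdkn1a* fell in bone, by 1.05 on the log2 scale (adjusted p = 0.000531).

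*Cdkn1b* encodes p27, the inhibitor that holds cyclin E and CDK2 in resting cells. It was scarce in fresh bone, at 1.94, 1.32 and 1.02 CPM in GFP- libraries (26 counts in all) and 2.12, 2.34 and 2.49 CPM in GFP+ libraries. The bone difference of 0.56 ± 0.54 had an interval of -0.65 to 1.77, so a change of up to several fold was not detectable at this depth. In bone chips it was 43.6, 39.6 and 34.4 CPM in GFP- and 22.4, 24.1 and 17.3 CPM in GFP+ libraries. There *Cdkn1b* fell by 0.87 on the log2 scale with an SE of 0.15 (adjusted p = 0.00365), with no overlap of libraries. ESC libraries (16.5, 12.3 and 9.33 CPM) and ESC-OB libraries (8.83, 8.34 and 12.53 CPM) overlapped (log2 difference -0.37 ± 0.26, interval -0.95 to 0.21, adjusted p = 0.218).

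*Cdkn1c*, which encodes p57, the third Cip/Kip inhibitor, is not among the 10 and had the widest range of the family. It fell by 5.202 on the log2 scale in bone (SE 0.39, adjusted p = 8.09e-06), fell by 1.61 in bone chips (SE 0.27, adjusted p = 0.00298), and rose by 5.48 ± 0.39 in ESC-OB (adjusted p = 4.18e-07). Bone GFP- cells held 2234 ± 345 CPM and bone GFP+ cells 66.5 ± 29.8 CPM (SD, n = 3).

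*Cdkn2a* gives rise to p16Ink4a, which inhibits CDK4 and CDK6, and to p19Arf, which holds MDM2 away from p53; gene counts do not separate the transcripts. In fresh bone it had 0, 0 and 2 counts in GFP- and 2, 4 and 5 counts in GFP+ libraries, and it did not pass the filter. The ratio of GFP+ to GFP- levels, from 11 and 2 counts, was 2.401 with a 95% counting interval of 0.524 to 22.3, so no direction can be read. In bone chips the counts were 225, 341 and 336 in GFP- and 586, 621 and 608 in GFP+ libraries, which is 21.8, 24.1 and 17.4 CPM against 61.6, 57.0 and 53.7 CPM. GFP+ libraries were all higher, by 1.45 ± 0.14 (2.74-fold, adjusted p = 0.000252). ESC had 15.4, 11.5 and 7.82 CPM and ESC-OB 0.537, 0.718 and 0.267 CPM (26, 26 and 11 counts). *Cdkn2a* fell by 4.52 on the log2 scale there (SE 0.42, adjusted p = 3.16e-06).

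*Cdkn2b*, the neighbour of *Cdkn2a*, encodes p15, the INK4 inhibitor known to be induced by TGF-beta. It was at 4.85, 4.61 and 3.92 CPM in bone GFP- and 5.65, 7.56 and 7.79 CPM in bone GFP+ libraries, which did not overlap, yet the difference of 0.51 ± 0.37 (interval -0.32 to 1.35) did not pass the test (adjusted p = 0.301). In a joint fit of all 18 libraries it was 0.64 and passed (adjusted p = 0.0143). In bone chips it was at 53.7, 43.9 and 38.1 CPM in GFP- and 30.7, 24.1 and 32.8 CPM in GFP+ libraries. There *Cdkn2b* fell by 0.62 (log2, SE 0.16, adjusted p = 0.0207), the opposite direction to *Cdkn2a* in the same libraries. The adjusted p was 0.0606 without GFP- replicate 1, 0.0568 without GFP+ replicate 1 and 0.0623 without GFP+ replicate 2. In ESC *Cdkn2b* was at 2.97, 2.63 and 2.65 CPM and in ESC-OB at 44.5, 41.6 and 39.9 CPM. It rose by 3.93 ± 0.19 (15.3-fold, adjusted p = 2.98e-08), again opposite to *Cdkn2a*.

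*Cdkn2c* encodes p18, an INK4 inhibitor of CDK4 and CDK6. Bone GFP- libraries held 14.2, 13.0 and 17.4 CPM and bone GFP+ libraries 1.66, 3.83 and 3.35 CPM. *Cdkn2c* fell by 2.48 on the log2 scale (SE 0.40, adjusted p = 0.000942), 5.59-fold lower in GFP+ cells. Bone chip GFP- libraries held 25.9, 25.1 and 28.0 CPM and GFP+ libraries 2.52, 3.49 and 3.00 CPM, where it fell by 3.12 (SE 0.15, adjusted p = 2.76e-05), 8.68-fold lower. It passed in every alternative run for either source. Of 12 chondrocyte markers, 11 were higher in GFP- cells of bone, and in bone chips 4 were higher in GFP- cells and 2 in GFP+ cells. Fibroblast and progenitor markers made up 0.392 to 0.633% of all counts of bone chip GFP- and 0.112 to 0.121% of GFP+ libraries. In bone the shares went the other way, with 0.158 to 0.219% in GFP- and 0.375 to 0.414% in GFP+ libraries. Of 9 such markers tested in bone, 6 were lower and 3 higher in GFP+ cells. In bone chips all 9 tested were lower. Of all genes, 19.5% were higher and 22.1% lower in GFP+ cells of bone, and 20.4% and 23.1% in those of bone chips. The 2 chondrocyte markers higher in bone chip GFP+ cells were near that share. The part of either list in these results was not tested. In ESC *Cdkn2c* had 6, 10 and 5 counts, and in ESC-OB 49, 40 and 63. Its rise of 1.26 ± 0.49 (adjusted p = 0.0360) did not pass in 8 of 15 alternatives, among them DESeq2 (adjusted p = 0.0592) and the fit without ESC replicate 2 (adjusted p = 0.200).

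*Cdkn2d* encodes p19Ink4d, the remaining INK4 inhibitor. It was at 101, 110 and 86.5 CPM in bone GFP- and 72.6, 88.6 and 98.0 CPM in bone GFP+ libraries, which overlapped (-0.33 ± 0.17, interval -0.72 to 0.05, adjusted p = 0.152). Bone chips held far less, with 9.69, 7.69 and 8.99 CPM in GFP- and 9.77, 7.89 and 10.8 CPM in GFP+ libraries (0.12 ± 0.16, interval -0.27 to 0.51, adjusted p = 0.595). In ESC it was at 9.34, 7.79 and 6.43 CPM and in ESC-OB at 26.6, 36.5 and 30.1 CPM. *Cdkn2d* rose there by 1.97 ± 0.21 (3.92-fold, adjusted p = 7.43e-06).

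*Rb1* encodes the retinoblastoma protein, which binds activating E2F factors. It was at 11.5, 17.9 and 7.51 CPM in bone GFP- and 37.6, 33.1 and 39.1 CPM in bone GFP+ libraries. *Rb1* rose by 1.43 ± 0.30 (2.70-fold, adjusted p = 0.00419), and the libraries did not overlap. With library totals alone the value was 0.34 (adjusted p = 0.395). *Lpar6*, which shares exon bases with *Rb1*, rose by 3.32 ± 0.48 in bone and was at -0.42 ± 0.23 in bone chips (adjusted p = 0.187). *Rcbtb2*, the other such gene, rose by 0.76 ± 0.21 in bone and was at -0.31 ± 0.13 in bone chips (adjusted p = 0.101), and the part of both in the *Rb1* counts was not tested. In bone chips the levels were 33.9, 37.2 and 36.5 CPM in GFP- and 121, 99.1 and 104 CPM in GFP+ libraries, a rise of 1.60 ± 0.10 (3.03-fold, adjusted p = 6.03e-05). ESC held 14.7, 15.8 and 14.5 CPM and ESC-OB 19.4, 16.5 and 20.2 CPM, and the difference of 0.31 ± 0.17 (interval -0.08 to 0.70) did not pass (adjusted p = 0.125). Without ESC-OB replicate 2 it was 0.47 with an adjusted p of 0.0175.

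*Rbl1* encodes p107, a pocket protein made in cycling cells and itself under E2F control. Its levels were 14.7, 17.6 and 19.6 CPM in bone GFP- and 10.6, 6.28 and 1.25 CPM in bone GFP+ libraries. All GFP+ libraries were lower, but at 6.05 ± 4.69 CPM (SD, n = 3) they varied more, relative to the mean, than for the other 9 genes in bone GFP+ cells. *Rbl1* fell by 1.64 (SE 0.59) with an adjusted p of 0.0498. That call was lost without any bone GFP- replicate (adjusted p = 0.0872, 0.116 and 0.129 without replicates 1, 2 and 3) and without GFP+ replicate 2 (adjusted p = 0.0900). In bone chips GFP- libraries (10.1, 13.8 and 15.1 CPM) and GFP+ libraries (16.0, 17.8 and 14.3 CPM) overlapped (0.30 ± 0.17, interval -0.11 to 0.72, adjusted p = 0.200). ESC held 24.0, 28.6 and 24.3 CPM and ESC-OB 8.85, 6.33 and 6.80 CPM, and *Rbl1* fell by 1.82 (SE 0.20, adjusted p = 1.13e-05).

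*Rbl2* encodes p130, the pocket protein of resting cells and of the DREAM repressor. It was at 16.6, 24.4 and 19.6 CPM in bone GFP- and 34.8, 33.2 and 52.95 CPM in bone GFP+ libraries. *Rbl2* rose by 0.86 ± 0.24 (1.81-fold, adjusted p = 0.0187). The adjusted p was 0.0690 without GFP- replicate 1, 0.0515 without GFP- replicate 3, and 0.169 when GFP+ replicate 2, the library with Y-linked counts, was set alone against the GFP- libraries. Bone chip libraries lay close together, at 31.0, 31.3 and 31.4 CPM in GFP- and 28.0, 29.6 and 28.4 CPM in GFP+ cells. The difference of -0.12 ± 0.07 (interval -0.30 to 0.06) did not pass (adjusted p = 0.236). ESC held 10.4, 10.4 and 7.06 CPM and ESC-OB 22.3, 21.0 and 20.1 CPM, a rise of 1.17 ± 0.20 (2.24-fold, adjusted p = 0.000343). *Aktip*, which shares exon bases with *Rbl2*, rose by 1.21 ± 0.20 in bone and 0.98 ± 0.19 in ESC-OB, and its part in the *Rbl2* counts was not tested.

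The count ratio of *Rbl2* to *Rbl1* sets both pocket proteins side by side within a library and does not depend on scaling. It was 1.13, 1.38 and 1.00 in bone GFP- and 3.27, 5.25 and 41.2 in bone GFP+ libraries, a log2 difference of 2.94. GFP+ replicate 3 had only 16 *Rbl1* counts, and without it the difference was 1.84. In bone chips the ratio was 3.07, 2.27 and 2.08 in GFP- and 1.75, 1.66 and 1.98 in GFP+ libraries, a log2 difference of -0.45. In ESC it was 0.437, 0.362 and 0.292 and in ESC-OB 2.51, 3.31 and 2.96, a log2 difference of 3.02. No libraries overlapped in any of the 3 sources, and the two-sided exact permutation p was 0.10 in each, the smallest that 3 against 3 libraries allow.

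**Figure D3:**
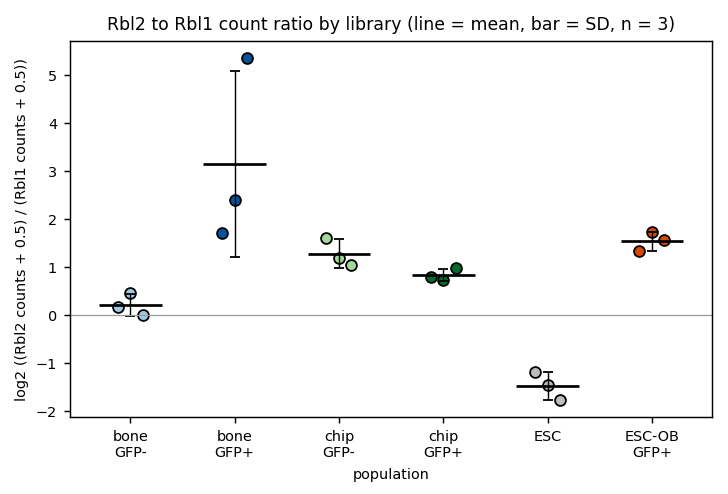
Log2 count ratio of *Rbl2* to *Rbl1* (0.5 added to each count) in each library of the 6 populations; lines are means and bars SD (n = 3). ESC lie below 0, and ESC-OB and bone GFP+ cells lie above their references, whereas bone chip GFP+ cells lie below theirs.

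*Trp53* encodes p53, which stops the cycle or triggers death after damage, and it was highest in ESC. ESC held 201, 279 and 253 CPM, 5.21 times the mean of the next population, and ESC-OB held 35.8, 37.7 and 37.9 CPM. *Trp53* fell by 2.73 on the log2 scale (SE 0.18, adjusted p = 2.33e-07), while *Cdkn1a*, which p53 induces, rose. In bone it was at 37.5, 25.4 and 29.5 CPM in GFP- and 41.2, 34.8 and 47.5 CPM in GFP+ libraries, which overlapped (0.28 ± 0.20, interval -0.16 to 0.73, adjusted p = 0.282). With library totals alone the bone value was -0.76 (adjusted p = 0.00877), and in the joint fit of 18 libraries it was 0.42 (adjusted p = 0.0454). In bone chips it was at 44.9, 46.3 and 49.7 CPM in GFP- and 24.0, 23.8 and 30.6 CPM in GFP+ libraries. There *Trp53* fell by 0.84 (SE 0.12, adjusted p = 0.00157), again beside a rise of *Cdkn1a*. Neighbouring populations below ESC overlapped in the order of *Trp53* levels, from bone chip GFP- (47.0 ± 2.50 CPM) over bone GFP+, ESC-OB and bone GFP- to bone chip GFP+ cells (26.1 ± 3.87 CPM; SD, n = 3).

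Whether the GFP difference itself differed between fresh bone and bone chips was tested as an interaction over their 12 libraries. The effect in bone chips was above that in bone for 2 of the 10 genes and below it for 4, against 15.6% above and 14.7% below of 13574 genes tested. *Cdkn2a* is among the 10, but it passed the filter there only through the bone chip libraries. Its difference of effects (0.37 ± 1.41) was not called and cannot be read. For *Cdkn1a* the GFP effect was above that in bone, with a difference of effects of 1.51 ± 0.22 (adjusted p = 0.000229). *Rbl1* was above as well (1.93 ± 0.68, adjusted p = 0.0478), but that call was lost in 12 of 22 alternatives. The genes below were *Cdkn1b* (-1.42 ± 0.33, adjusted p = 0.00626), *Cdkn2b* (-1.13 ± 0.29, adjusted p = 0.0101), *Rbl2* (-0.98 ± 0.27, adjusted p = 0.0154) and *Trp53* (-1.13 ± 0.24, adjusted p = 0.00363). With library totals alone the split was 3 above and 0 below. *Rb1* and *Cdkn2c* changed the same way in both sources, and the differences of their effects were 0.16 (interval -0.52 to 0.85) and -0.62 (interval -1.48 to 0.24).

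**Figure D4:**
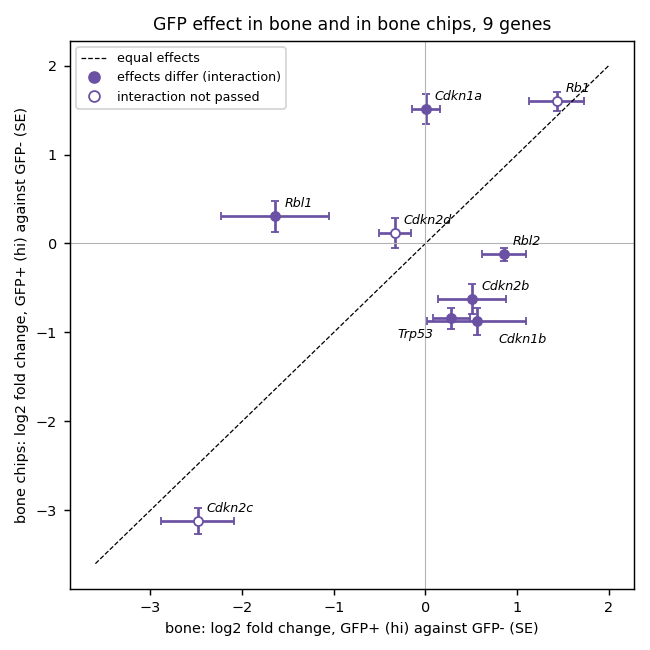
GFP+ (hi) against GFP- log2 fold changes in bone (x axis) and bone chips (y axis) with SE for the 9 genes tested in both; filled points passed the interaction test and the dashed line marks equal effects. *Cdkn1a* lies on 0 in bone and at 1.51 in bone chips, whereas *Cdkn2c* and *Rb1* lie near the line.

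Bone chips held more *Cdkn2a*, *Cdkn1b*, *Cdkn2b* and *Rb1* than fresh bone and less *Cdkn2d*. In the comparison of all bone chip with all bone libraries 5 of the 10 genes were higher in bone chips and 2 lower, against 36.7% higher and 33.3% lower of 13574 genes. *Cdkn2a* is among the 5, but it passed the low-count filter only through the bone chip libraries. Its filter and its call are therefore not independent, and its call adds no support to that count. *Cdkn2a* was 216 times higher in bone chip GFP+ than in bone GFP+ cells (95% counting interval 120 to 433, from 1815 and 11 counts) and 186 times higher in GFP- cells (51.5 to 1542, from 902 and 2 counts). *Cdkn1b* was higher by 4.01 ± 0.17 on the log2 scale (adjusted p = 9.18e-10), *Cdkn2b* by 2.73 ± 0.15 (adjusted p = 6.34e-09) and *Rb1* by 1.58 ± 0.16 (adjusted p = 1.81e-06). *Cdkn2d* fell by 3.31 (SE 0.13, adjusted p = 6.21e-10), 9.95-fold lower in bone chips, and *Cdkn1a* by 0.50 (SE 0.11, adjusted p = 0.00116). The value for *Cdkn1a* with library totals alone was -0.06 (adjusted p = 0.649). The mean of *Cdkn1a* was lower in bone chips for GFP- cells only (251 CPM against 578 CPM in bone). In GFP+ cells it was 710 CPM in bone chips and 637 CPM in bone, and these libraries overlapped. *Cdkn2c* (0.47 ± 0.20, adjusted p = 0.0488) did not pass in 16 of 22 alternatives. *Rbl1* (0.51, interval -0.22 to 1.25), *Rbl2* (0.09, interval -0.20 to 0.38) and *Trp53* (0.00, interval -0.26 to 0.26) did not pass. Of 20 proliferation markers, 8 were lower in bone chips and *Mki67* (1.66 ± 0.17) was the one that was higher. Blood lineage markers had 5 higher and 2 lower of 8 tested, and chondrocyte markers 1 higher and 8 lower of 12. The part of these lists in the values was not tested.

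Partner genes were taken from lists. Of all genes tested, 19.5% were higher and 22.1% lower in bone, 20.4% and 23.1% in bone chips, and 43% and 34.7% in ESC-OB. All 20 proliferation markers were lower in GFP+ cells in each source; *Mki67* changed by -1.81, -2.16 and -5.18 on the log2 scale in bone, bone chips and ESC-OB, the order of all values given in threes from here on. Of 25 S phase genes that E2F controls, bone had 20 lower and 0 higher, bone chips 17 and 1, and ESC-OB 25 and 0. *Rrm2*, which makes deoxynucleotides, changed by -3.26, -2.48 and -4.79, and *Mcm5*, of the replicative helicase, by -2.54, -2.06 and -4.59. *Pole*, a DNA polymerase subunit, changed by -1.66, -2.14 and -5.03. The gene higher in bone chips was *Rpa2* (0.69), of the protein that coats single-stranded DNA. Among 10 E2F and DP factors 5, 6 and 9 were lower and none higher. The repressors *E2f8* (-3.94, -2.59 and -3.72) and *E2f7* (-2.98, -2.13 and -2.49) led in bone and bone chips, and the activator *E2f3* (-3.98) led in ESC-OB. Of 7 genes listed for the DREAM and MuvB complexes, *Foxm1* (-1.78, -1.86 and -2.95) and *Mybl2* (-1.67, -1.19 and -3.41) were lower in each source. The other five were not called in bone or bone chips, and 3 of them fell in ESC-OB. The 2 of 7 lower in bone and in bone chips were near the share of all genes.

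The kinases and cyclins that the inhibitors act on were next counted, G1 genes first. Beside these counts, 19.5% of all genes were higher and 22.1% lower in bone, 20.4% and 23.1% in bone chips, and 43% and 34.7% in ESC-OB. The number of G1 genes higher in bone chips was near that share. Of 8 G1 genes, 3 were lower in bone (*Cdk6* -2.23, *Ccne2* -2.003, *Ccne1* -1.22) and 0 higher. In bone chips *Ccne1* (-0.96), *Ccnd1* (-0.94) and *Ccnd2* (-0.45) were lower, whereas *Ccne2* (1.07) and *Ccnd3* (0.50) were higher. In ESC-OB *Ccnd2*, a D-type cyclin, rose by 6.03 ± 0.45 while 5 others fell, among them *Ccne1* (-3.42). Of 8 genes of S, G2 and M phase 5, 7 and 7 were lower; *Cdk1* changed by -3.08, -1.78 and -3.11 and *Ccna2* by -2.92, -2.63 and -3.74. The gene higher in bone was *Cdc25a* (0.94), a phosphatase that activates CDKs, and it was not higher with library totals alone.

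**Figure D5:**
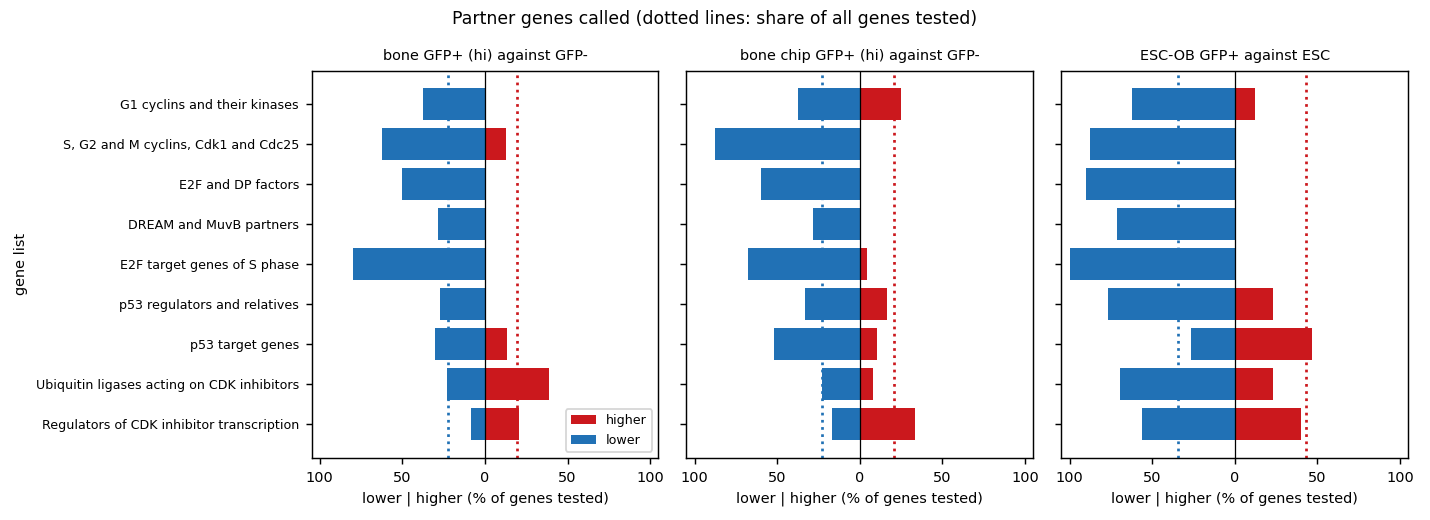
Share of the tested genes of 9 partner lists that were higher (right, red) or lower (left, blue) in GFP+ cells of each source, in percent; dotted lines mark the share of all genes tested (19.5% higher and 22.1% lower in bone, 20.4% and 23.1% in bone chips, 43% and 34.7% in ESC-OB). In ESC-OB all 25 S phase genes that E2F controls were lower, whereas the 14 of 30 p53 target genes that were higher lie near the share of all genes.

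Target genes of p53 did not move one way across the 3 sources. Bone had 4 higher and 9 lower of 30 tested, bone chips 3 and 15 of 29, and ESC-OB 14 and 8 of 30; with library totals alone these were 0 and 21, 1 and 22, and 14 and 6. Over all genes 19.5% were higher and 22.1% lower (bone), 20.4% and 23.1% (bone chips), and 43% and 34.7% (ESC-OB). These shares with library totals alone were 5.54% and 62%, 8.24% and 61.7%, and 47.4% and 31.4%. The number of target genes higher in ESC-OB was thus near the share of all genes. In bone chips the lower ones exceeded the share of all genes and the higher ones fell short of it. Their median there was -0.43 on the log2 scale, beside -0.04 over all genes. In ESC-OB the death receptor *Fas* (8.19 ± 0.68), the adhesion gene *Perp* (5.03 ± 0.27), *Btg2* (4.95 ± 0.23), which restrains proliferation, and *Pmaip1* (3.91 ± 0.32), which encodes the death protein NOXA, were higher. *Pmaip1* was higher in bone chips too (2.02 ± 0.52), where *Plk2* (-1.76), *Phlda3* (-1.16) and *Ckap2* (-2.36), a spindle gene, were lower. In bone *Perp* (-6.38), *Tnfrsf10b* (-2.78), *Ckap2* (-2.43) and *Psrc1* (-1.89) were lower, and the 4 higher genes were *Phlda3* (1.19), *Trp53inp1* (1.04), *Ei24* (0.87) and *Sesn1* (0.73). Of 13 regulators and relatives of p53, 10 fell and 3 rose in ESC-OB, among them the kinases *Atm* (-3.55) and *Chek1* (-3.52), *Npm1* (-4.18) and the relative *Trp63* (7.61). *Trp63* was lower in bone chip GFP+ cells (-2.56). In bone 3 of 11 were lower (*Atr* -1.30, *Npm1* -0.67, *Trp53bp1* -0.63) and none higher, and in bone chips 4 of 12 were lower and 2 higher. *Mdm2*, the ligase that removes p53, was at 0.44 ± 0.17 in bone (adjusted p = 0.0611) and 0.18 ± 0.16 in bone chips (adjusted p = 0.401), and rose by 0.68 ± 0.15 in ESC-OB (adjusted p = 0.00211).

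CDK inhibitors are also set by protein turnover and by repressors of their genes. Among 13 genes of ubiquitin ligases that act on them, bone had 5 higher and 3 lower, bone chips 1 and 3, and ESC-OB 3 and 9; with library totals alone they were 0 and 8, 0 and 12, and 3 and 9. The genes lower in bone and bone chips were near the 22.1% and 23.1% of all genes, and in ESC-OB 34.7% of all genes were lower. *Dtl* (-2.84, -1.84 and -3.45), *Cdc20* (-3.04, -2.05 and -2.87) and *Cks1b* (-2.12, -1.04 and -1.25) were lower in each source. *Skp2*, which marks p27 for destruction, fell in ESC-OB (-3.04) and was not called in bone (-0.45) or bone chips (-0.08). For regulators of CDK inhibitor transcription, bone had 5 higher and 2 lower of 24, bone chips 8 and 4 of 24, and ESC-OB 10 and 14 of 25. Of all genes, 19.5% (bone), 20.4% (bone chips) and 43% (ESC-OB) were higher, so that the numbers higher in bone and ESC-OB were near the background. The number lower was under the share of all genes in bone (22.1%) and over it in ESC-OB (34.7%). With library totals alone the pairs of bone and bone chips became 2 and 16, and 1 and 12. Of all genes, 5.54% were then higher and 62% lower in bone, and 8.24% and 61.7% in bone chips. *Tbx2*, a repressor of *Cdkn2a* and *Cdkn1a*, was higher in each source, by 6.48 ± 0.40 (bone), 2.06 ± 0.28 (bone chips) and 4.74 ± 0.48 (ESC-OB). *Tbx3*, its relative, was lower in bone chips (-1.65), and *Id1*, which restrains *Cdkn2a*, was lower in bone (-3.76) and bone chips (-0.75) and higher in ESC-OB (5.76). The Polycomb genes *Cbx2* (2.01) and *Bmi1* (1.23) were higher in bone, and *Myc* was higher in ESC-OB (5.12).

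The genes whose levels most resembled each of the 10 were sought by Pearson's r of log2 CPM over the 18 libraries. These correlations describe differences between 6 populations with shared preparation and depth, and 18 libraries are not independent points. *Cdkn1a* was nearest to *Bmp2* (r = 0.97), which encodes an osteogenic growth factor, then *Nrbp2* and *Sema3d*. *Cdkn1b* was nearest to *Actn1* (r = 0.98), *Ppp1r12a* and *Rbms2*, and *Cdkn2a* to *Sptan1* (r = 0.98), *Mapk8* and *Zfp91*. The nearest to *Cdkn2b* were *Oasl2* (r = 0.97) and *Ifi44*, both known as genes of the interferon response. *Cdkn2c* was nearest to *Ncs1* (r = 0.94), *Ank* and *Slurp1*, and *Cdkn2d* to *Napa* (r = 0.99), *Dnttip1* and *Mrpl27*. *Rb1* was nearest to *Unc5b* (r = 0.95), *Klhl24* and *Dennd4a*, *Rbl1* to *Pus7* (r = 0.93) and *Ttll5*, and *Rbl2* to *Pja2* (r = 0.96), *Smarcc2* and *Vamp7*. *Trp53* was nearest to *Set* (r = 0.97), *Zfp207* and *Lap3*.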

How the data were processed

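Poly-A RNA was purified and sequenced from both ends by the authors. The submitters' processing notes name STAR 2.4.2a, the build mm9, DESeq2 and R 3.2.2. The deposited values are raw counts per RefSeq gene, 1 table per source; the counting tool and strand setting are not given in the sources used here. Genes were kept by filterByExpr (minimum count 10), scaled by TMM and compared with edgeR 4.0.16 (quasi-likelihood test, R 4.3.3) over all genes of a source. Benjamini-Hochberg adjusted p-values under 0.05 were called. The SE of a log2 difference is its absolute value divided by the square root of the F statistic of that test. The 95% intervals of log2 differences were built from this SE. Levels used TMM over those of the 15853 genes shared by the tables that passed the same filter, and RPKM used exon lengths of GENCODE vM1. Counting intervals are at 95% and cover counting error only.

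Members and gene lists were chosen with earlier results of these data known. Named genes are the 10, *Cdkn1c*, *Mki67*, label checks, up to 4 called genes with the largest changes per list and source, and the 3 most correlated genes, of which some are not reported here; others named from lists were chosen after their values were seen. Alternatives were DESeq2 1.42.0, other factors and filters, thinning, a joint fit, leaving out libraries and a replicate block. Same-numbered bone chip libraries deviated together (residual correlations 0.149, 0.317 and 0.387), and in bone and ESC no such correlation reached 0.1. Differently numbered libraries were not compared and the labels name no pairing, so a pairing is not shown. The main fits had no replicate block. ESC replicates 2 and 3 differed by little more than sampling noise (chi-square of 1.68 per degree of freedom) and were kept apart; summing them was added after seeing the data. Fits were tested on simulated data in which 200 genes changed, so the effect of the scaling seen in bone was not covered. Figures were drawn with Python 3.11.15 and matplotlib 3.10.9.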

Additional observations from a re-analysis of the deposited data

Results flagged for a closer look

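The GFP effect differed between bone chips and fresh bone, by the interaction test of edgeR over 12 libraries, for 6 of the 10 genes, beside 15.6% of all genes above and 14.7% below. The effect in bone chips minus that in bone was 1.51 on the log2 scale for *Cdkn1a*, 1.93 for *Rbl1*, -1.42 for *Cdkn1b*, -1.13 for *Cdkn2b*, -0.98 for *Rbl2* and -1.13 for *Trp53*. The call of *Rbl1* was lost in 12 of 22 alternatives. Chondrocyte markers made up 17.2 to 29.7% of all counts of bone GFP- libraries and 0.708 to 1.21% of bone chip GFP- libraries, and their part in these differences was not tested.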

How the results depend on the processing

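Of 889 values of the 10 genes under alternatives, 784 kept direction and side of the threshold, 31 turned sign without a call on either side, 55 lost and 15 gained the call, and 4 turned sign with a call on one side, all with library totals alone: *Cdkn1a* (-1.05), *Rbl2* (-0.21) and *Trp53* (-0.76) in bone and *Cdkn2d* (-0.44) in bone chips. The 31 belong to 9 results, among them *Cdkn1a* in bone and *Trp53* between bone chips and bone. The count called in the interaction was then 3, as against 6. Leaving out single libraries gave 2 to 4 calls in bone, 6 or 7 in bone chips, 7 to 9 in ESC-OB, 5 to 7 in the interaction, and 6 or 7 between bone chips and bone. With a replicate block the calls were 3 in bone, 7 in bone chips, 7 in ESC-OB, 5 in the interaction and 6 between bone chips and bone; the block ended the calls of *Rbl1* in bone (adjusted p = 0.0502), *Rbl1* in the interaction (adjusted p = 0.0567), *Cdkn2c* in ESC-OB (adjusted p = 0.0674) and *Cdkn2c* between sources (adjusted p = 0.108), and no call within bone chips. For the *Rbl2* to *Rbl1* ratio a replicate block cannot change the log2 differences (2.94, -0.45 and 3.02), since each group holds 3 libraries. It changes only the p, which was 0.25 in each source by an exact sign-flip test of the paired differences. Without single libraries the log2 differences of the ratio ranged from 1.84 to 3.66 in bone, -0.56 to -0.28 in bone chips and 2.87 to 3.16 in ESC-OB. A joint fit of 18 libraries raised the calls in bone from 4 to 6, adding *Cdkn2b* and *Trp53*. With ESC replicates 2 and 3 summed, 7 genes passed in ESC-OB. The causes of these changes were not tested. Depth limits *Cdkn2a* and *Cdkn1b* in bone and *Cdkn2c* in ESC, which had 2, 26 and 21 counts in all in the reference libraries.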
